A study of Rattus with 12 samples.

Results

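The genes described here are Lcn2 and 9 other reactive astrocyte and acute phase genes, which are Steap4, Serpina3n, Timp1, S1pr3, Cp, Osmr, Gfap, Vim and Cd44. They were chosen by symbol, with earlier results of the same cultures in view, from a table of 17337 gene symbols. All 10 were in the table, and all 10 were among the 12271 genes that passed the filter on low counts. The RNA came from complex cultures of Sprague Dawley rat cortical neurons, astrocytes and oligodendrocyte precursor cells (OPCs), grown together and first dosed at 24 to 26 days in vitro. There were 4 untreated cultures (A, G, M and P, given medium without fentanyl), 4 low dose cultures (B, H, N and Q, 0.01 µM fentanyl) and 4 high dose cultures (C, I, O and R, 10 µM fentanyl), all collected after 4 days. Fentanyl is an opioid receptor agonist. No label says whether the 4 cultures of a dose came from separate cell preparations, so the p-values measure only the spread between these samples.

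Astrocytes answer injury, infection and inflammatory cytokines by becoming reactive, with more intermediate filament, a changed surface and secretion of acute phase proteins. Cytokines of the interleukin 6 family act on this program through gp130 and STAT3, and interleukin 1 and tumor necrosis factor act through NF-kB. Lcn2, Serpina3n, Steap4, Timp1, Cp, Osmr, S1pr3, Cd44, Gfap and Vim are among the genes commonly used to mark it, although none of them is made by astrocytes alone. In RNA from a mixed culture, fewer cells of a type and less RNA per cell cannot be told apart.

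The total count was 12059872 to 17023909 per untreated culture, 12907388 to 16512387 per low dose culture and 15102785 to 24813893 per high dose culture. Levels are in CPM, read counts scaled to library size with TMM factors, and they were compared within a gene only, since no transcript lengths were used. Neuron markers stood apart in 1 library. Their mean log2(CPM + 1) was 3.77 in untreated G and between 7.37 and 7.99 in the other 11 cultures. Untreated G also had the highest level of the 12 cultures for 7 of the 10 genes, where 27.7% of all genes tested had their highest level in it. The main results that rest on the untreated cultures are therefore given with and without G. Culture letters follow each other from untreated to high dose, which gives 4 letter sets, A with B and C, G with H and I, M with N and O, and P with Q and R. No label says what a letter stands for. Differences inside a set are given from the set of A to that of P, in alphabetical order.

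Lcn2 encodes lipocalin 2, a secreted acute phase protein that binds the siderophores with which bacteria take up iron. Its level was 122, 1894, 66.9 and 107 CPM in untreated A, G, M and P, it was 112, 156, 448 and 181 CPM in low dose B, H, N and Q, and it was 324, 611, 646 and 1390 CPM in high dose C, I, O and R. Untreated G was the highest of the 12 cultures, and high dose R was the next. With G left aside, all 4 high dose cultures lay above all 3 untreated cultures, by at least the step from 122 to 324 CPM. High dose and low dose cultures overlapped, since low dose N lay above high dose C. The mean was 547 ± 898 CPM for untreated, 224 ± 152 CPM for low dose and 743 ± 455 CPM for high dose cultures (SD, n = 4), and it was 98.5 ± 28.4 CPM in untreated cultures without G (SD, n = 3). The SD of the untreated group thus came from G for the most part.

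Within the letter sets, Lcn2 was higher in the high dose than in the low dose culture each time, by 1.52, 1.97, 0.53 and 2.94 on the log2(CPM + 1) scale. Steap4 was the only other member with a higher level in all 4 sets, and 11.7% of all genes tested had that order. Against the untreated culture of the set, high dose Lcn2 differed by 1.40, -1.63, 3.25 and 3.69. The sign was thus positive in the 3 sets without G, and the difference amounted to 12.9-fold in P-Q-R. Low dose Lcn2 differed from untreated by -0.12, -3.60, 2.73 and 0.75, so the direction was not shared even without G.

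**Figure D1:**
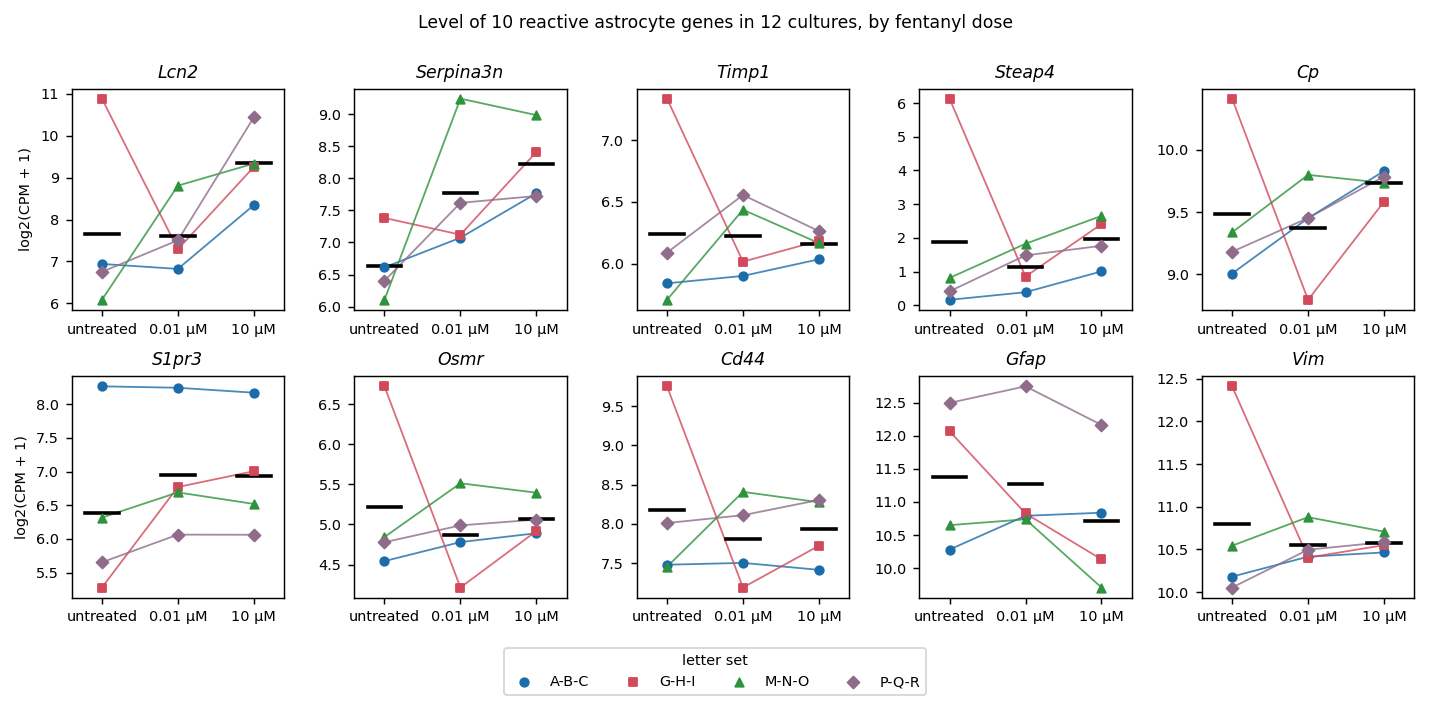
Level of each of the 10 genes as log2(CPM + 1) (y axis, own range per gene) in untreated, low dose (0.01 µM) and high dose (10 µM) cultures, with 1 point per culture, lines joining the cultures of a letter set and black bars at the group means. Untreated G (red square) is the highest point for 7 genes, and Lcn2 is higher at 10 µM than at 0.01 µM along all 4 lines.

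The other secreted genes are Serpina3n, a serine protease inhibitor, and Timp1, an inhibitor of matrix metalloproteinases. Serpina3n was at 96.8, 166, 67.8 and 83.5 CPM in untreated A, G, M and P, at 134, 138, 606 and 195 CPM in low dose B, H, N and Q, and at 217, 340, 506 and 211 CPM in high dose C, I, O and R. It was the only member for which every high dose culture lay above every untreated culture with G included, an order seen in 0.359% of all genes tested. Within the sets, high dose Serpina3n was above untreated by 1.16, 1.03, 2.88 and 1.33 on the log2(CPM + 1) scale, again with G-H-I second. A positive difference in all 4 sets was found for 5.22% of all genes. The low dose gave a difference of 0.46, -0.26, 3.14 and 1.22, and the 8.81-fold difference in M-N-O was the largest. High dose and low dose levels overlapped, with means of 318 ± 139 and 268 ± 227 CPM (SD, n = 4). The rat table also lists the paralogs Serpina3c and Serpina3m, and reads shared between them make the Serpina3n count uncertain.

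Timp1 was at 56.4, 160, 51.3 and 67.1 CPM in untreated A, G, M and P, at 58.8, 63.7, 85.6 and 93.1 CPM in low dose B, H, N and Q, and at 64.6, 71.8, 70.9 and 75.8 CPM in high dose C, I, O and R. Apart from G, its 11 values lay within a narrow range, and the 4 high dose cultures were the closest to each other, with 70.8 ± 4.63 CPM (SD, n = 4). The span of Timp1 overlaps that of Syn1, the neuronal synapsin gene, and the library kit does not mark strand. Only whole gene spans were compared, not exons, so whether the Timp1 count holds reads of Syn1 was not tested.

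Steap4 and Cp handle metals. Steap4 is a membrane metalloreductase of iron and copper, and Cp encodes ceruloplasmin, a copper enzyme that oxidizes iron and is bound to the astrocyte membrane. Steap4 had few reads, with 2, 1066, 11 and 4 counts in untreated A, G, M and P, 4, 13, 39 and 26 counts in low dose B, H, N and Q, and 17, 86, 82 and 58 counts in high dose C, I, O and R. The count in untreated A is at the floor of 3 counts, the limit that a count of 0 allows, and the counting error of P and B is large as well. Each of the other 9 genes had at least 284 counts in every culture. In CPM the untreated Steap4 values were 0.118, 69.1, 0.754 and 0.333, the low dose values 0.308, 0.803, 2.55 and 1.79, and the high dose values 1.01, 4.31, 5.29 and 2.398. The untreated mean was 17.6 ± 34.4 CPM with G (SD, n = 4) and 0.402 ± 0.324 CPM without it (SD, n = 3), so that G alone set the direction of the difference in means from the high dose mean of 3.25 ± 1.92 CPM (SD, n = 4). High dose Steap4 was above low dose by 0.62, 1.56, 0.83 and 0.29 within the sets on the log2(CPM + 1) scale, a scale that understates the difference at such levels.

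Cp was at 513, 1360, 646 and 580 CPM in untreated A, G, M and P, at 699, 443, 890 and 699 CPM in low dose B, H, N and Q, and at 909, 766, 850 and 881 CPM in high dose C, I, O and R. The 4 high dose values were close together, at 852 ± 61.9 CPM (SD, n = 4), and lay above the 3 untreated values without G, at 579 ± 66.1 CPM (SD, n = 3). The high dose difference from untreated was 0.82, 0.40 and 0.60 in the sets without G and -0.83 in G-H-I. The span of Cp overlaps that of Hps3, a gene of lysosome-related organelles, and the span of Steap4 overlaps that of a long noncoding RNA gene. Some reads of Cp and Steap4 may belong to these genes, which was not tested, since exons were not compared.

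Without G, every high dose culture lay above every untreated culture for 5 of the 10 members, which were Lcn2, Steap4, Serpina3n, Cp and Osmr, and for 1.17% of all genes tested. In the 3 letter sets without G the high dose was above untreated each time for 7 members (the same 5 with Timp1 and Vim) and for 15.1% of all genes. These counts describe genes that had been picked with such differences known, and nothing is read from them about reactive genes at large.

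The receptors among the members are Osmr, which pairs with gp130 to bind oncostatin M, S1pr3, a receptor of sphingosine 1-phosphate, and Cd44, a receptor of hyaluronan. Osmr was at 22.3, 105, 27.7 and 26.4 CPM in untreated A, G, M and P, at 26.5, 17.5, 44.7 and 30.7 CPM in low dose B, H, N and Q, and at 28.7, 29.2, 41.1 and 32.4 CPM in high dose C, I, O and R. The lowest high dose value was barely above the highest untreated value other than G, 28.7 against 27.7 CPM. The high dose difference from untreated was 0.35, 0.55 and 0.28 in the sets without G and -1.81 in G-H-I.

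Cd44 was at 178, 861, 174 and 257 CPM in untreated A, G, M and P, at 181, 145, 339 and 276 CPM in low dose B, H, N and Q, and at 170, 210, 309 and 315 CPM in high dose C, I, O and R. All 3 doses overlapped with or without G, and the high dose difference from untreated ranged from -2.03 in G-H-I to 0.82 in M-N-O.

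S1pr3 followed the letter set instead of the dose. It was at 307, 302 and 287 CPM in A, B and C, and at 78.7, 102 and 90.7 CPM in M, N and O. In P, Q and R it was at 49.3, 65.9 and 65.8 CPM. Only in G-H-I did the doses lie far apart, with 37.8 CPM in untreated G against 108 in low dose H and 127 in high dose I, and it was the only member with its lowest level in G.

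Gfap and Vim encode intermediate filament proteins of the astrocyte cytoskeleton, Gfap largely confined to astrocytes in the brain and Vim made by many cell types. Gfap was at 1244, 4293, 1606 and 5772 CPM in untreated A, G, M and P, at 1771, 1815, 1707 and 6867 CPM in low dose B, H, N and Q, and at 1829, 1123, 836 and 4585 CPM in high dose C, I, O and R. The P-Q-R cultures held the highest level of each dose, and G came next among the untreated. The high dose mean of 2093 ± 1713 CPM was below the untreated mean of 3229 ± 2174 CPM and the low dose mean of 3040 ± 2551 CPM (SD, n = 4), with wide overlap. Within the sets, high dose Gfap differed from low dose by 0.05, -0.69, -1.03 and -0.58, so it was lower in 3 of the 4 sets in which Lcn2 was higher in all 4.

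Vim was at 1160, 5450, 1492 and 1062 CPM in untreated A, G, M and P, at 1364, 1354, 1882 and 1444 CPM in low dose B, H, N and Q, and at 1412, 1499, 1672 and 1536 CPM in high dose C, I, O and R. Apart from G, all values lay between 1062 and 1882 CPM. The high dose was above untreated by 0.28, 0.16 and 0.53 in the sets without G, and below it by -1.86 in G-H-I.

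**Figure D2:**
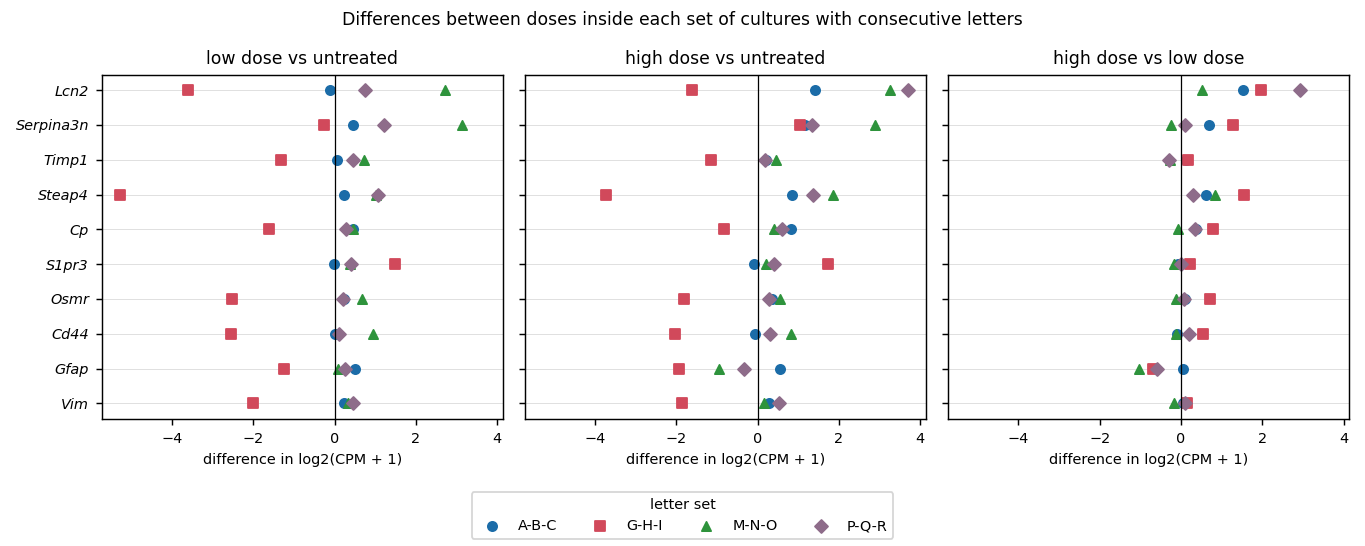
Difference in log2(CPM + 1) between 2 doses (x axis) inside each letter set, with 1 point per set for each of the 10 genes. The G-H-I points (red squares) lie below 0 for 9 genes in low dose vs. untreated and for 8 genes in high dose vs. untreated, while in high dose vs. low dose, which does not use G, all 4 points of Lcn2 and of Steap4 lie above 0.

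How much of each gene's variation lay between letter sets and between doses was computed over the 11 cultures without G, each factor taken alone. For Lcn2 the doses held 74.2% of the variation of log2(CPM + 1) and the sets 8.11%. Serpina3n had 58.8% between doses and 17.1% between sets, Steap4 had 56.0% and 38.4%, and Cp had 48.1% and 19.3%. The median over all genes tested was 7.96% between doses and 75.3% between sets. S1pr3 was at the other end, with 97.6% between sets and 0.949% between doses, and Gfap was near it with 87.3% and 6.97%. Osmr (52.6% and 16.2%), Cd44 (60.3% and 7.41%), Vim (46.4% and 39.5%) and Timp1 (33.9% and 35.8%) lay between these. With G included the dose share was 29.5% for Lcn2, 51.6% for Serpina3n, 13.3% for Cp, 5.71% for Steap4, 3.78% for Vim, 5.62% for Osmr and 0.725% for Timp1, against a median over all genes of 8.70%. Of the 5 genes with more variation between doses than between sets without G, Lcn2, Serpina3n and Cp kept that order with G, and Steap4 and Timp1 did not. The set share with G was 18.2% for Lcn2, 16.4% for Serpina3n and 3.92% for Cp. Both shares of Cp were thus low with G, and its order there says little about dose.

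**Figure D3:**
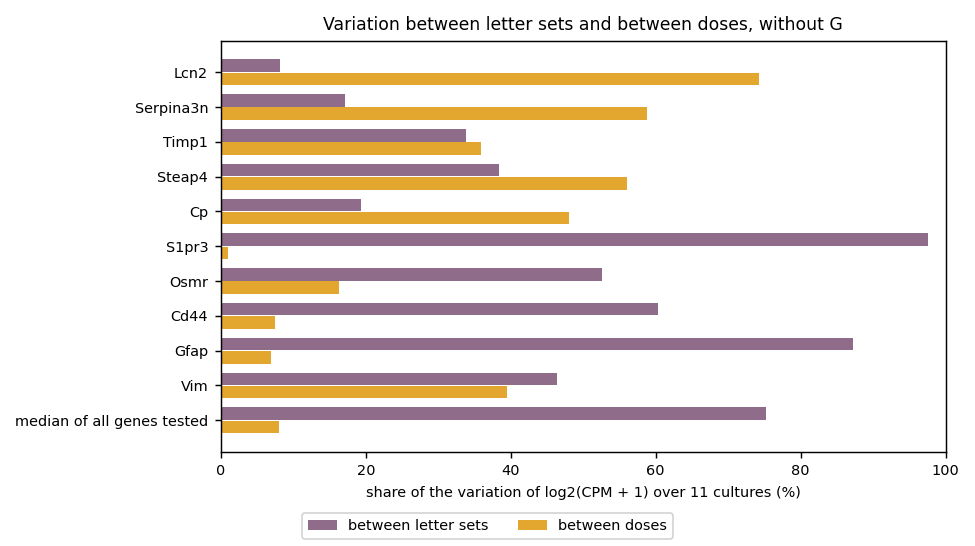
Share of the variation of log2(CPM + 1) over the 11 cultures without G (x axis, percent) that lay between letter sets (purple) and between doses (orange) for each gene, each factor taken alone, with the median over all genes tested at the bottom. The dose bar is longer than the set bar for Lcn2, Serpina3n, Timp1, Steap4 and Cp.

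The high dose vs. low dose comparison and that of each dose with untreated were then tested across all genes in 1 model of the 12 cultures with 1 factor of unwanted variation, by the quasi-likelihood test of edgeR. The factor was 0.93 in untreated G and between -0.22 and 0.15 in every other culture. This model thus sets G apart for the most part, and its values are not independent of the fits without G. A DEG had to pass 0.05 on the adjusted p and a size of 0.5 on the log2 fold change, up or down. The share of genes called was 0% in each comparison, so no member was called. At an unadjusted p under 0.05 there were 91 genes (0.742% of all tested) and 1 member in low dose vs. untreated, 146 genes (1.19%) and 4 members for the high dose against untreated, and 144 genes (1.17%) and 1 member between high dose and low dose. The members had been picked with such differences known. DESeq2 with the same factor called 0, 3 and 1 genes in that order, and Lcn2 was among the 3, with a log2 fold change of 2.48 and a DESeq2 adjusted p of 0.00885. Both comparisons with untreated share the same 4 untreated cultures. In all comparisons the share of genes at an unadjusted p under 0.05 was smaller than genes without any difference would give. The edgeR test was thus conservative here, and the lack of calls does not show that the doses were alike. The model holds no term for the letter sets, and the part of that was not tested.

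In high dose vs. untreated the fitted log2 fold change was 2.49 for Lcn2 (SE 0.58), 2.33 for Steap4 (SE 0.61), 1.87 for Serpina3n (SE 0.43) and 0.45 for Cp (SE 0.18). Each of these 4 lay more than 2 SE above 0, and none passed the adjustment over 12271 genes (edgeR adjusted p 1 for all 10 members). Osmr, Timp1, S1pr3, Vim and Cd44 had values from 0.08 to 0.17, and Gfap was at -0.67 (SE 0.77). The median over the members was 0.16, with 9 of 10 above 0, where the median over all genes was 0.00 with 50.8% above 0. With the factor and without G the median of the members was 0.36, with 8 of 10 above 0. Without the factor the values of Lcn2 and Steap4 were 0.44 and -2.44, and that of Serpina3n was 1.62. The Steap4 direction thus depended on how G was treated, and the Serpina3n direction did not.

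In low dose vs. untreated the largest fitted value was that of Serpina3n at 1.56 (SE 0.43), followed by Steap4 at 1.18 (SE 0.64) and Lcn2 at 0.53 (SE 0.54). The other 7 lay between -0.13 for Gfap and 0.21 for Timp1, and the median of the 10 was 0.13 against 0.01 over all genes. Without G it was 0.27, with all 10 above 0. Without the factor Lcn2 was at -1.29 and Steap4 at -3.68, so neither has a direction in this comparison that holds under both. Every low dose culture lay above every untreated culture for none of the members and 0.196% of all genes, and without G this held for Serpina3n and 0.627% of all genes. In the 3 letter sets without G the low dose was above untreated each time for 8 members, Lcn2 and S1pr3 not among them, and for 13.9% of all genes.

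In high dose vs. low dose the untreated cultures enter the fit only through the factor and the shared estimate of the spread. Lcn2 had the largest value at 1.96 (SE 0.54), Steap4 was at 1.15 (SE 0.53), Cp at 0.32 (SE 0.17) and Serpina3n at 0.30 (SE 0.42). Gfap was the lowest at -0.54 (SE 0.72), and the other 5 lay between -0.10 and 0.14. Every high dose culture lay above every low dose culture for none of the members and for 0.668% of all genes. Without the factor Lcn2 was at 1.73 and Steap4 at 1.24, and with the factor but without G they were at 1.64 and 1.31.

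A replicate block by letter sets with untreated G left out gave smaller standard errors for most members. This fit tested 12337 genes and called 0% of them for the low dose against untreated, 0.122% for the high dose against untreated, and 0.113% between high dose and low dose. In high dose vs. untreated the 15 genes called included Steap4, with a log2 fold change of 2.998 (SE 0.43, edgeR adjusted p = 0.0445). Lcn2 was at 2.79 (SE 0.55, edgeR adjusted p = 0.121), Serpina3n at 1.82 (SE 0.44, edgeR adjusted p = 0.208) and Cp at 0.69 (SE 0.13, edgeR adjusted p = 0.113). In high dose vs. low dose Lcn2 was at 1.72 (SE 0.46, edgeR adjusted p = 0.165) and Gfap at -0.54 (SE 0.19, edgeR adjusted p = 0.281). None of the members passed there. The median of the members was 0.32, 0.45 and 0.16 in low dose vs. untreated, in the high dose against untreated and between both doses of fentanyl, with 10, 9 and 7 of 10 above 0. With the same block and all 12 cultures no gene was called, and the median was -0.23, -0.02 and 0.09 in the same order, so its sign against untreated turned with G.

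**Figure D4:**
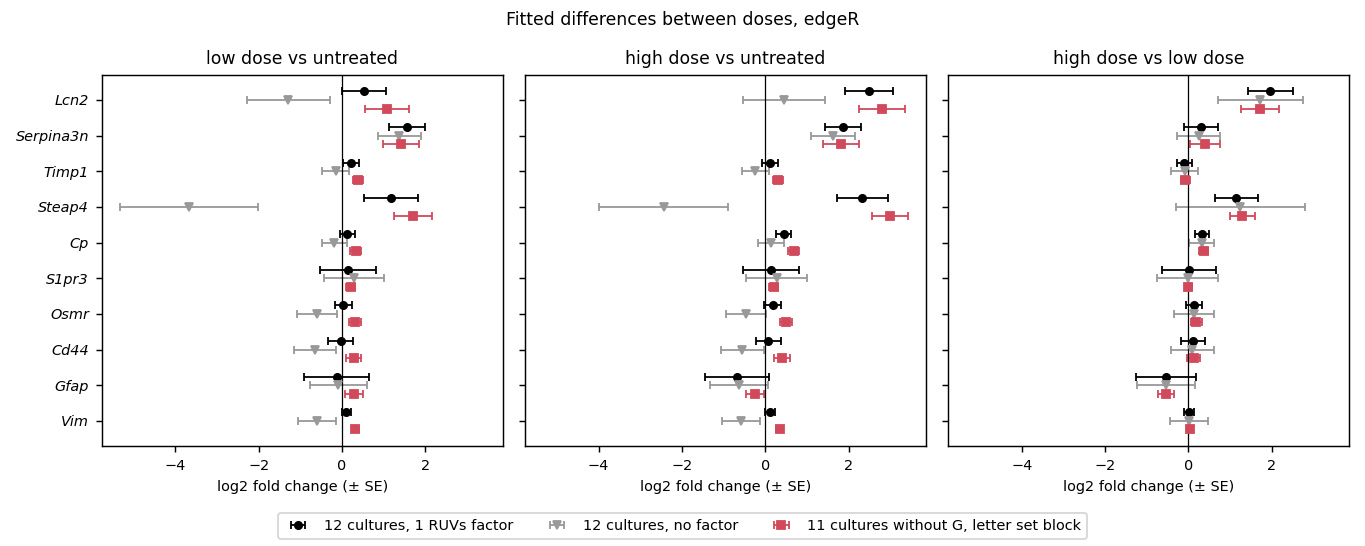
Fitted log2 fold change of each gene (x axis, bars are ± 1 SE, edgeR) in the 3 comparisons, for 12 cultures with 1 factor of unwanted variation (black), 12 cultures with no factor (grey) and 11 cultures without G with a block by letter set (red). Lcn2 and Steap4 move to lower values in grey in both comparisons with untreated, and the 3 symbols lie close together in high dose vs. low dose.

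Markers of the cell types that the cultures could hold were set beside these values. Homeostatic astrocyte markers were present in every culture, with a mean log2(CPM + 1) of 7.11 to 8.64 over 15 markers. Of these 15 genes, 0 lay above 0 in high dose vs. untreated (median log2 fold change -0.45), and 0 in high dose vs. low dose (median -0.24). Examples were Glul, glutamine synthetase, at -0.07 (SE 0.50), S100b, a calcium-binding protein, at -0.48 (SE 0.52), and Mlc1, an astrocyte membrane protein, at -0.33 (SE 0.24) in high dose vs. untreated. None of the 15 was called, while the Gfap value was also below 0 in both of these comparisons. With the block and without G, the median in high dose vs. untreated was -0.31 with 1 of the 15 above 0. Inside the letter sets the score of these markers differed between high dose and untreated by 0.29, -0.54, -0.96 and -0.28, so it was higher at the high dose in A-B-C.

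Microglia and fibroblasts were not seeded, and their markers were nevertheless found. The score of 10 microglia markers was 1.64 to 1.83 in P, Q and R and 3.80 to 5.78 in the other 9 cultures. Cx3cr1 had 1, 1 and 0 counts in P, Q and R, and it was also scarce in G, with 9 counts. C1qb had 174, 240 and 308 counts in P, Q and R, so microglia markers were low there but not absent. The Lcn2 difference between high dose and untreated was 3.69 in P-Q-R, beside 3.25 in M-N-O, -1.63 in G-H-I and 1.40 in A-B-C. In high dose vs. untreated all 10 microglia markers had a fitted value above 0 (median 0.89), and none was called. With the block and without G the median was 0.77, again with 10 above 0, and 8 of the 10 had an unadjusted p under 0.05 with none called. In that fit 9.43% of all genes tested had an unadjusted p under 0.05. The microglia score was above untreated in the 3 sets without G at the high dose, by 0.60, 0.59 and 0.17, and at the low dose, by 0.39, 1.15 and 0.18. The part of these cells in the Lcn2, Serpina3n and Steap4 values was not tested.

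The fibroblast and mural score, over 6 markers, was 6.74 in untreated G and 6.86 in low dose N, and at most 4.58 in the other 10 cultures. Col1a1, Col1a2, Col3a1 and Pdgfrb were highest in G and N. Dcn was at 68.3 CPM in G and 0.587 CPM in N, and Acta2 at 1.23 CPM in G and 109 CPM in N. The markers behind the score thus differed between G and N. Low dose N was also the low dose culture with the highest Lcn2, Serpina3n, Steap4, Cp, Osmr, Cd44 and Vim. The share of all genes tested that were highest in N among the low dose cultures was not computed, so nothing is read from this about the members. The part of fibroblast or mural cells in it was not tested. None of 8 marker scores (neuron, homeostatic astrocyte, OPC, oligodendrocyte, microglia, fibroblast and mural, endothelial, proliferation) passed the exact two-sided permutation test over 70 arrangements, which does not take the letter sets into account. The smallest exact p of the 24 tests was 0.286, and all adjusted p were 1. With 70 arrangements and adjustment over 24 tests, a single score could not have passed, however far apart its doses lay. The test therefore cannot show that the cell types were alike between doses. Inside the letter sets, the OPC score was higher in high dose than in low dose cultures by 0.19, 0.20, 0.30 and 0.12, and the neuron score by 0.01, 0.16, 0.23 and 0.17, the sets in which Lcn2 was also higher.

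**Figure D5:**
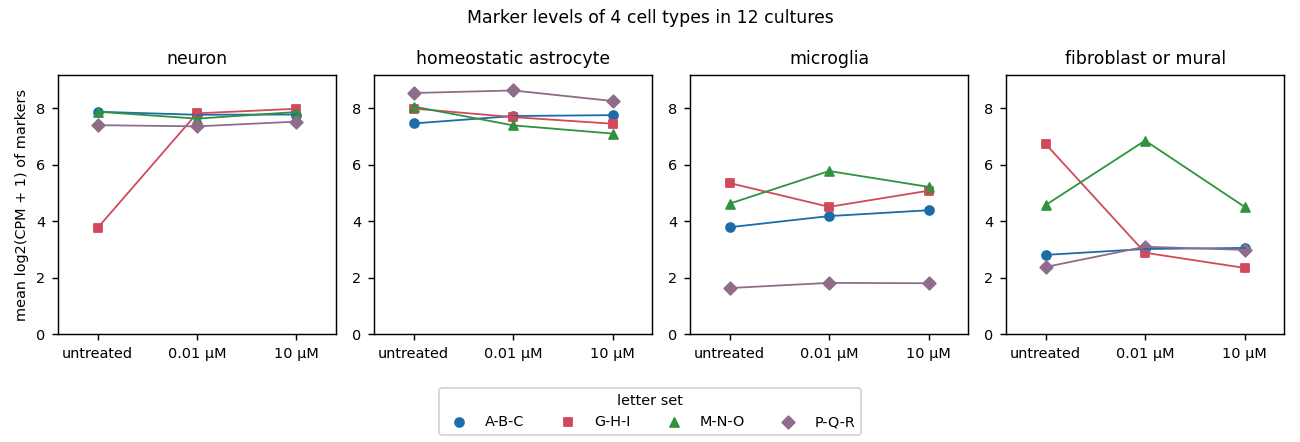
Mean log2(CPM + 1) of the markers of 4 cell types (y axis) in each culture by dose, with lines joining the cultures of a letter set. Neuron markers are low in untreated G (3.77), microglia markers are low in P, Q and R (1.64 to 1.83), and the mean of the fibroblast and mural markers is high in G and N (6.74 and 6.86).

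Other genes of the reactive program were read from lists that were set with earlier results known. Of the 3 further pan-reactive genes tested, 2 were above 0 in high dose vs. untreated and none was called. Hspb1, a small heat shock protein, was at 0.80 (SE 0.34), Cxcl10, a chemokine, at 1.44 (SE 1.33) and Aspg, an asparaginase, at -0.77 (SE 0.76). Of 9 tested genes of the neurotoxic (A1) list, 6 were above 0 in high dose vs. untreated (median 0.25), and none was called in the model with the factor. C3, the central complement protein, was at 2.10 (SE 0.38) and Serping1, an inhibitor of complement C1, at 0.66 (SE 0.26). With the block and without G both were called, C3 at 2.37 and Serping1 at 0.90 (edgeR adjusted p 0.0443 for each). Gbp2, an interferon-induced GTPase, was at 0.71 (SE 0.69), and Fbln5, an elastic fiber protein, was at -0.52 (SE 0.42).

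Of 11 tested genes of the protective (A2) list, 5 were above 0 in high dose vs. untreated (median -0.07), and none was called. With the block and without G 9 of the 11 were above 0 (median 0.21). The direction of this list thus depended on the fit, and these fits differ both in G and in the model. Ptx3, a secreted pentraxin, was at 1.21 (SE 0.54), and at 1.58 (SE 0.44) with the block and without G. S100a10, an annexin partner, was at -0.07 (SE 0.23) and at 0.25 (SE 0.07), and Emp1, a membrane protein, at -0.31 (SE 0.45) and at 0.21 (SE 0.15) in these 2 fits. C3, Cxcl10, Ptx3 and Lcn2 are among the genes the study itself picked from these cultures, so their place in the lists is not independent evidence of a direction.

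The signalling genes upstream of the program were read in the same way. Of 18 tested genes of the gp130 and STAT3 list, 10 were above 0 in high dose vs. untreated (median 0.03), and 16 with the block and without G (median 0.10), with none called in either fit. Il6st, the gp130 chain that pairs with Osmr, was at -0.09 (SE 0.18), Jak1, its kinase, at 0.03 (SE 0.20), Stat3 at 0.05 (SE 0.08), and Cebpd, a transcription factor, at 0.34 (SE 0.26). Of 11 tested genes of the interleukin 1, tumor necrosis factor and NF-kB list, 9 were above 0 with a median of 0.24, and 10 with the block and without G (median 0.46). Nfkbia, the inhibitor of NF-kB that NF-kB itself induces, was at 0.67 (SE 0.14), and it was called with the block and without G at 0.89 (edgeR adjusted p = 0.0445). Rela and Nfkb1, subunits of NF-kB, were at 0.06 (SE 0.07) and 0.14 (SE 0.11). The receptor chains Tnfrsf1a and Il1rap, of tumor necrosis factor and interleukin 1, were at -0.05 each (SE 0.17 and 0.46). Il1b, the cytokine interleukin 1 beta, was picked after its values were seen, at 2.81 (SE 1.02) with a mean of 1.19, 0.63 and 2.35 CPM in untreated, low dose and high dose cultures and 2.66 (SE 0.47) with the block and without G.

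The binding partners and functional relatives of the members, 22 tested, had a median of 0.02 with 12 above 0 in high dose vs. untreated (0.20 with 13 above 0 with the block and without G), and none was called in either fit. Slc22a17, a lipocalin 2 receptor, averaged 617.8, 639.7 and 648.5 CPM in untreated, low dose and high dose cultures, a fitted difference of 0.02 (SE 0.16). Fth1, the ferritin heavy chain that stores iron, was at 0.04 (SE 0.20), Tf, the iron carrier transferrin, at 0.15 (SE 0.86), and Cd63, a membrane partner of Timp1, at 0.06 (SE 0.25).

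Genes whose pattern across cultures was most like that of Lcn2 were found by Pearson's correlation of log2(CPM + 1), as a description over cultures that share doses and letter sets. Over 12 cultures the 5 highest outside the members were Birc3 (r = 0.90, Spearman's rho = 0.87), Sod2 (r = 0.88, rho = 0.89), Ccl7, Tmem171 and Rassf9 (r = 0.87 each). Birc3 is an inhibitor of apoptosis and Sod2 the mitochondrial superoxide dismutase. Sod2 was at 226, 835, 165 and 154 CPM in untreated A, G, M and P, at 222, 160, 322 and 169 CPM in low dose B, H, N and Q, and at 271, 352, 469 and 329 CPM in high dose C, I, O and R. Like Lcn2 it was highest in G.

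Over the 11 cultures without G the 5 highest were Tnip1 (r = 0.88, rho = 0.90), Chi3l1 (r = 0.87, rho = 0.78), Tmem171 and Ntng1 (r = 0.86 each) and Birc3 (r = 0.85). Tnip1 binds the NF-kB regulator A20, and Chi3l1 is a secreted chitinase-like protein of reactive astrocytes. Chi3l1 was at 89.9, 154, 106 and 126 CPM in untreated A, G, M and P, at 103, 100, 157 and 177 CPM in low dose B, H, N and Q, and at 138, 166, 219 and 321 CPM in high dose C, I, O and R. High dose R was the highest of the 11 cultures without G, as for Lcn2, and low dose N and Q overlapped with the high dose. Among the members, Steap4 (r = 0.81) and Serpina3n (r = 0.78) came closest to Lcn2 without G, at places 9 and 18 of all genes. Gfap (r = -0.09) and S1pr3 (r = -0.16) were the least like it. Over all 12 cultures Steap4 was at place 21 (r = 0.81) and Cp at place 30 (r = 0.80). Serpina3n was there at place 501 (r = 0.63), behind Cd44, Timp1, Osmr and Vim as well.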

How the data were processed

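Per the labels, the authors made poly(A)+ libraries of total RNA, mapped reads to the rn6 build by STAR and used featureCounts for gene counts. What they deposited is raw counts, as whole numbers without normalization. Tools were edgeR 4.0.16, DESeq2 1.42.0 and limma 3.58.1 under R 4.3.3. After filterByExpr and TMM scaling, 12271 of 17337 genes were tested by quasi-likelihood with the 3 doses and 1 factor from the RUVs procedure, written anew in R, since the study names RUVseq without its settings. This factor held 41.0% of the variation within doses, and a scaling or factor that removes it moves the genes that are high in G. Adjusted p are Benjamini-Hochberg values. CPM refers to the TMM-scaled total of tested genes. The code was tested on simulated data.

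The members and lists were chosen with earlier results of these data known. All 10 members are named, then up to 4 genes a list by mean CPM with any gene called and Il1b, and 5 genes by likeness to Lcn2. Marker scores are means of log2(CPM + 1). The alternatives were no or 2 factors, a replicate block by letter sets with or without G, DESeq2 and its size factors, the likelihood ratio test, other filters, only the 8 cultures compared, and each culture left out in turn. For marker scores they were an offset of 0.1, DESeq2 size factors, the median and each culture left out. A factor without G and N, and blocks without G-H-I or without G and N, were added after seeing the data. Promoter sequences were not used here.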

Additional observations from a re-analysis of the deposited data

Results flagged for a closer look

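In 3 of 30 groups of 4 cultures (10 genes at 3 doses) 1 culture stood apart from the other 3 by more than the 95% critical value of Dixon's criterion for 4 samples. Chance alone gives about 1 in 20 such groups. In the untreated group, G was the highest culture for Steap4, where the gap to the nearest culture was 0.891 of the whole range, and for Osmr, where it was 0.862. In the low dose group, Q was the highest culture for Gfap with a ratio of 0.956, and its 6867 CPM compare with 1707 to 1815 CPM in B, H and N.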

How the results depend on the processing

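Of 25 alternatives, 22 were planned and 3 were added after seeing the data. Low dose vs. untreated had 0 genes called under each of them, and leaving out any 1 culture left 0 genes called in all 3 comparisons (range 0 to 0). In high dose vs. untreated, 1 gene was called with 2 RUVs factors, 15 with the replicate block by letter sets without G, 3 with DESeq2, 2 with the likelihood ratio test, and, among the added fits, 2 with the block without G-H-I and 88 with the block without G and N. In high dose vs. low dose the counts were 1 with 2 factors, 14 with the block without G, 1 with DESeq2, 5 with the block without G-H-I and 35 with the block without G and N, and the cause was not tested. The block without G and N called Lcn2, Steap4, Serpina3n and Cp in high dose vs. untreated (log2 fold changes 2.76, 2.95, 1.87 and 0.66) and Lcn2 in high dose vs. low dose (2.32). G and N held the highest untreated and the highest low dose level of each of these genes. Leaving both out after seeing the data favors such calls, so nothing is read from them.

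Across the alternatives Lcn2 kept its direction in high dose vs. untreated (0.44 to 2.84) and in high dose vs. low dose (1.25 without R to 2.32), and it changed sign in low dose vs. untreated under 2 of them. Serpina3n kept its direction against untreated at both doses (0.90 without N to 1.75 at the low dose, 1.45 to 1.99 at the high dose), and Cp did at the high dose (0.14 to 0.69). In high dose vs. untreated with no factor, the SE was 0.98 for Lcn2 and 0.30 for Cp, larger than the values. With the block that includes G, Lcn2 was at 1.37 (SE 1.15) and Cp at 0.19 (SE 0.34). Most other alternatives use the same kind of factor, so their shared sign is not independent. Steap4, which the filter of 10 counts in every culture removed, was below 0 in high dose vs. untreated with no factor. Gfap turned to 0.40 in high dose vs. untreated without P, and S1pr3 changed sign in high dose vs. low dose under 14. The median of the 10 genes was below 0 in both comparisons with untreated with no factor (-0.39 and -0.35) and with the block that includes G, and in high dose vs. low dose without H (-0.03). Depth limited Steap4, with counts at or near the floor in A, P and B.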

Other observations

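With the replicate block by letter sets and without G, 13 genes were higher and 2 lower in high dose vs. untreated. Those not described above were picked for being called in this fit. Vcam1, an adhesion molecule of inflamed cells, was higher by 1.26 on the log2 scale (edgeR adjusted p = 0.00491), Cfb, complement factor B, by 2.06 (edgeR adjusted p = 0.0472), and C1s, a protease of the classical complement pathway, by 1.10 (edgeR adjusted p = 0.0377). Irg1, which makes itaconate in activated macrophages, was higher by 4.12 (edgeR adjusted p = 0.0420). Adcyap1, the neuropeptide PACAP, fell by 1.07, and Ostn, a secreted peptide, fell by 2.92 (edgeR adjusted p = 0.0377 and 0.000864).

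In high dose vs. low dose, 2 genes were higher and 12 lower in the same fit. Vcam1 and Irg1 were the higher ones, by 0.98 and 3.96 (edgeR adjusted p = 0.00710 for both). The lower ones included the activity-regulated secreted factors Bdnf (-1.63), Vgf (-1.48), Scg2 (-1.20) and Adcyap1 (-1.42), with edgeR adjusted p from 0.00330 to 0.0419. None of these was called with all 12 cultures and 1 factor of unwanted variation.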
